A study of Mus musculus with 2 samples.

Results

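Tcf1 ChIP-seq peaks in later introns were described in naïve CD8+ T cells. A peak was taken as a later-intron peak when its summit, the base of highest coverage, lay more than 1 kb from every annotated start site, outside all exons, and in the second or a later intron of the longest protein-coding transcript of a gene, never in the first. These rules use position alone, so peak strength and sequence at the summit were free to vary. Of the 21764 deposited peaks on chromosomes 1 to 19, 3734 (17.2%) met them. The other peaks lay within 1 kb of a start site (8545 promoter peaks), between genes (6064), in first introns (2468), in exons (521) or elsewhere in a gene (432).

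Tcf1 binding was measured in 1 WT library of 36938606 fragments, with 1 library of 27625250 fragments from Tcf1-deficient cells, made with the same anti-Tcf1 antiserum, as the control (both after removal of duplicates). The cells were spleen CD8+ T cells sorted as GFP+ TCRbeta+ cells of naïve surface phenotype (CD44lo-med). The control is called Tcf1-deficient in its title and Tcf1-/-Lef1-/- in its genotype label, the series' design names hCD2-Cre, Rosa26-lsl-GFP mice that were wild type or double floxed for Tcf1/Lef1, and the study's methods name Cd4-Cre+ Tcf7 fl/fl mice for this control, so whether the control cells also lacked Lef1 differs between the sources. With 1 library per group there was no replicate check: every p here compares classes of peaks or windows within 1 peak list and says nothing of the spread between mice, and every interval covers counting error only. By the ages in the study's methods the mice were young adults, and the number of mice pooled was not given in the sources used here.

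Tcf1, encoded by Tcf7, is an HMG-box protein of the Tcf/Lef family that bends DNA at a short AT-rich core, and together with its relative Lef1 it is required for the development and identity of T cells. Introns of animal genes often hold enhancers and silencers, and the first intron, next to the promoter, is known to be rich in them. Runx and ETS proteins, which act with Tcf1 at many T cell enhancers, recognise their own short cores.

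The sequences on which the results turn are shown first, as 151 bp centred on the summit (mm9, plus strand), with copies of the Tcf/Lef core (ATCAAAG, or CTTTGAT on the other strand) and of the Runx core (TGTGGTT, or AACCACA) in capitals. Akap2, Samhd1, Pdcd1lg2 and Ptprc carry the strongest later-intron peaks with the Tcf/Lef core alone, Inpp5d and Tssc1 strong ones with both cores, Il18r1 and Map4k4 the strongest with the Runx core and no Tcf/Lef core, and Fyco1 the strongest with neither. Prdm1, Lef1 and Inpp4b are shown as T cell genes with the Tcf/Lef core.
Akap2 intron 2, chr4:57846939-57847089: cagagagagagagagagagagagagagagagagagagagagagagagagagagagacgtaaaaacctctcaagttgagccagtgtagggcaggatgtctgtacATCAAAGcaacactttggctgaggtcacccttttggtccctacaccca
Samhd1 intron 6, chr2:156944930-156945080: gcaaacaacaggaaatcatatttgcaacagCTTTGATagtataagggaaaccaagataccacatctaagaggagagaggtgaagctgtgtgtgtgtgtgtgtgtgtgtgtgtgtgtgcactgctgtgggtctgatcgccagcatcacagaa
Pdcd1lg2 intron 4, chr19:29528704-29528854: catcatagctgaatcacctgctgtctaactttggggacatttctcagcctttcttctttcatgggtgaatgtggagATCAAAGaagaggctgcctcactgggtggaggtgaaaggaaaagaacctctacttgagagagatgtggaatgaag
Ptprc intron 2, chr1:140059315-140059465: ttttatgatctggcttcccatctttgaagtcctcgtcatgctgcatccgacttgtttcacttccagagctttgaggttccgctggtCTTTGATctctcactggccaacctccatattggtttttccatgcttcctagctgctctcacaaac
Inpp5d intron 2, chr1:89533727-89533877: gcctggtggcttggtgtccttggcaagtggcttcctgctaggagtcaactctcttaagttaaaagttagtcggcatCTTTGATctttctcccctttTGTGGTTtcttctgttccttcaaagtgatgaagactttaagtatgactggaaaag
Tssc1 intron 4, chr12:29519293-29519443: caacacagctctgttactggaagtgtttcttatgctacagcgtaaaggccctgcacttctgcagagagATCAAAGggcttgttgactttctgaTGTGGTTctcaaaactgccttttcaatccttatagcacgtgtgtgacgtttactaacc
Il18r1 intron 3, chr1:40530654-40530804: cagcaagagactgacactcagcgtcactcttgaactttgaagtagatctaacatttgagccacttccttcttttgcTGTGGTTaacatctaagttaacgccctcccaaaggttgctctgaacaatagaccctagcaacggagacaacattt
Map4k4 intron 2, chr1:39974730-39974880: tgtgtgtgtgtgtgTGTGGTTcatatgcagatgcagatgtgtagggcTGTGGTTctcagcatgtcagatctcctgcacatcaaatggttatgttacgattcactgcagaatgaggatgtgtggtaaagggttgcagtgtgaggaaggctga
Fyco1 intron 14, chr9:123723535-123723685: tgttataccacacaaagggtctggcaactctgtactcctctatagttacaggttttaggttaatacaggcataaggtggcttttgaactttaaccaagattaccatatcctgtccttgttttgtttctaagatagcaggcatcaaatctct
Prdm1 intron 4, chr10:44168091-44168241: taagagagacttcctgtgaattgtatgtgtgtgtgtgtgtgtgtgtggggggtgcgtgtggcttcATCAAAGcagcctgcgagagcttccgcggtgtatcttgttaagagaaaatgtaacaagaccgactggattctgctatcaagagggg
Lef1 intron 8, chr3:130902901-130903051: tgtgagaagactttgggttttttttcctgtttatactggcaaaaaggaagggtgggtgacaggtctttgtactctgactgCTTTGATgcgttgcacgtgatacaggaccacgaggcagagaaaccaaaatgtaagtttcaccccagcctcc
Inpp4b intron 2, chr8:84218881-84219031: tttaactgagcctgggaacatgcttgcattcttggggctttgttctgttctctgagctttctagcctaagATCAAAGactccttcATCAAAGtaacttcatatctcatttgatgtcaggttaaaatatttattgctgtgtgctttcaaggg

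In these windows the Tcf/Lef core lay 4 bp from the summit in Inpp5d, Pdcd1lg2 and, on the other side, Tssc1, and 31 bp away in Akap2. The Runx core of Inpp5d and of Tssc1 stood downstream of the Tcf/Lef core on the plus strand. The Inpp4b window held 2 copies of the Tcf/Lef core on the same strand. The Fyco1 window held neither core.

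Later-intron peaks resembled first-intron peaks in strength and exceeded promoter peaks at the high end. Fold enrichment, the WT pileup (fragments over the summit) plus 1 divided by the level expected from the control library plus 1, had a median of 6.46 (interquartile range 4.67 to 11.1) at later-intron peaks and 6.400 at first-intron peaks. Of later-intron peaks, 3258 (87.3%) had a fold enrichment of at least 4, the study's minimum for high-confidence peaks, against 86.2% of all peaks on these chromosomes. This share was 87.2% of first-intron peaks (odds ratio 1.01, 95% interval 0.866 to 1.17; Fisher's exact test, two-sided, adjusted p = 0.968) and 84.4% of intergenic peaks (odds ratio 1.26, adjusted p = 0.000234), while 86.7% of promoter peaks reached it (odds ratio 1.05, adjusted p = 0.459). Against intergenic peaks the difference was no longer past the threshold when only summits 10 to 50 kb from a start site were compared (odds ratio 1.204, adjusted exact p = 0.0769). A fold enrichment of at least 10 was reached by 1068 later-intron peaks (28.6%), against 23.8% of all peaks, 27.1% of first-intron peaks (odds ratio 1.08, 95% interval 0.962 to 1.21, adjusted exact p = 0.272), 27.3% of intergenic peaks (odds ratio 1.06, 95% interval 0.972 to 1.17, adjusted exact p = 0.248) and 18.1% of promoter peaks (odds ratio 1.81, 95% interval 1.65 to 1.98, adjusted exact p = 5.53e-37). With only the strongest peak of each intron or intergenic gap kept, the direction turned and the odds ratio was 0.856 against first-intron peaks (adjusted exact p = 0.0386) and 0.863 against intergenic peaks (adjusted exact p = 0.0127).

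The median pileup over later-intron peaks was 43 fragments, with a Poisson 95% interval of 31.1 to 57.9, and the median width was 414 bp, against 504 bp for promoter peaks. The control level was at its genome-wide floor of 5.42 fragments at 3161 later-intron peaks (84.7%), so at these the fold enrichment followed the WT pileup alone. At the floor, a fold enrichment of 4 took 25 fragments, with a Poisson 95% interval of 16.2 to 36.9. The closest summits kept by the start-site limit were in Itgam at 1001 bp (fold enrichment 3.895) and Phip at 1007 bp (6.23), and the closest left out, both at 992 bp, were in P2rx3 (4.67) and Mthfd2 (15.3).

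The strongest later-intron peak stood in the second intron of Akap2, which encodes an anchor for protein kinase A, with 720 WT fragments (Poisson 95% interval 668 to 775), a control level of 5.42 and thus a fold enrichment of 112. It was followed by intron 6 of Samhd1, whose product hydrolyses nucleotides and restricts retroviruses, with 528 fragments and a fold enrichment of 82.4. Intron 2 of Inpp5d, encoding the lipid phosphatase SHIP1, had 511 fragments and a fold enrichment of 79.8. Intron 4 of Pdcd1lg2, encoding the PD-1 ligand PD-L2, had 551 fragments and a fold enrichment of 78.7, with 6.02 expected from the control. In intron 2 of Ptprc, which encodes the CD45 phosphatase of the T cell receptor pathway, 500 fragments gave a fold enrichment of 78.1. The intervals of these last 4 pileups overlapped, so their order was within counting error, while the Akap2 peak stood above them.

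The next of the 12 strongest were in Il20rb, a receptor chain for IL-20 family cytokines (482 fragments, fold enrichment 75.3), in Fyco1 (461 fragments, 72.0), in Tssc1 (510 fragments over a control level of 6.69, 66.5), in Mbp, encoding myelin basic protein (421 fragments, 65.7), in Il18r1, a chain of the IL-18 receptor (403 fragments, 62.9), in Runx1, a transcription factor of T cell development (391 fragments, 61.1), and in the kinase gene Map4k4 (387 fragments, 60.5). The Tcf/Lef core was present within 100 bp of the summit in 7 of these 12 peaks. Over all later-intron peaks the share was 14.0%, and over the 66 with a fold enrichment of at least 40 it was 33.3%. The host gene was not always the closest one: the Fyco1 peak, in intron 14, lay 8.02 kb from the start site of Cxcr6, a chemokine receptor gene, and over all later-intron peaks the nearest start site belonged to the host in 2544 (68.1%).

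Later-intron peaks were spread over 2731 introns of 1990 genes, out of 16171 coding genes with later-intron sequence. Of these genes 1266 held 1 later-intron peak, 133 held at least 5, and 30 held at least 10. Peaks that share an intron are not independent: 1549 (41.5%) did so, and the most in 1 intron was 17. That intron was the second of Itpkb, which encodes an inositol trisphosphate kinase of T cell receptor signalling, and its 17 peaks had fold enrichments of 3.895 to 30.1 with a median of 7.32. Thada followed with 16 peaks (4.05 to 23.5), and Ablim1, an actin-binding protein gene, with 15 (3.74 to 33.7). Sgms1, a sphingomyelin synthase gene (3.43 to 39.4), Ubac2 (3.85 to 26.3) and Wwox (4.02 to 18.1) also held 15 each, those of Wwox all in its eighth and last intron. The 15 peaks assigned to Fgfr2 lay in an annotated second intron of a transcript with 2401 kb of later-intron sequence, and the strongest was nearest to the start site of Fam53b, so the assignment to Fgfr2 rested on that transcript model.

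Sfi1, a gene of the centrosome, had the most later-intron peaks, 22, and differed from all these genes. Its peaks had control levels of 116 to 172 fragments, the highest of any later-intron peak, and fold enrichments of 1.36 to 3.89. A fold enrichment of 4 was reached by 0 of 22, against 87.3% of all later-intron peaks. Control levels above 50 fragments were found at 30 later-intron peaks in 8 host genes, and 22 of these were the Sfi1 peaks. The strongest of the others were in Jarid2 (fold enrichment 6.31, control level 62.8), Gphn (5.98, control level 76.2) and Camk1d (4.99, control level 80.9).

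**Figure D1:**
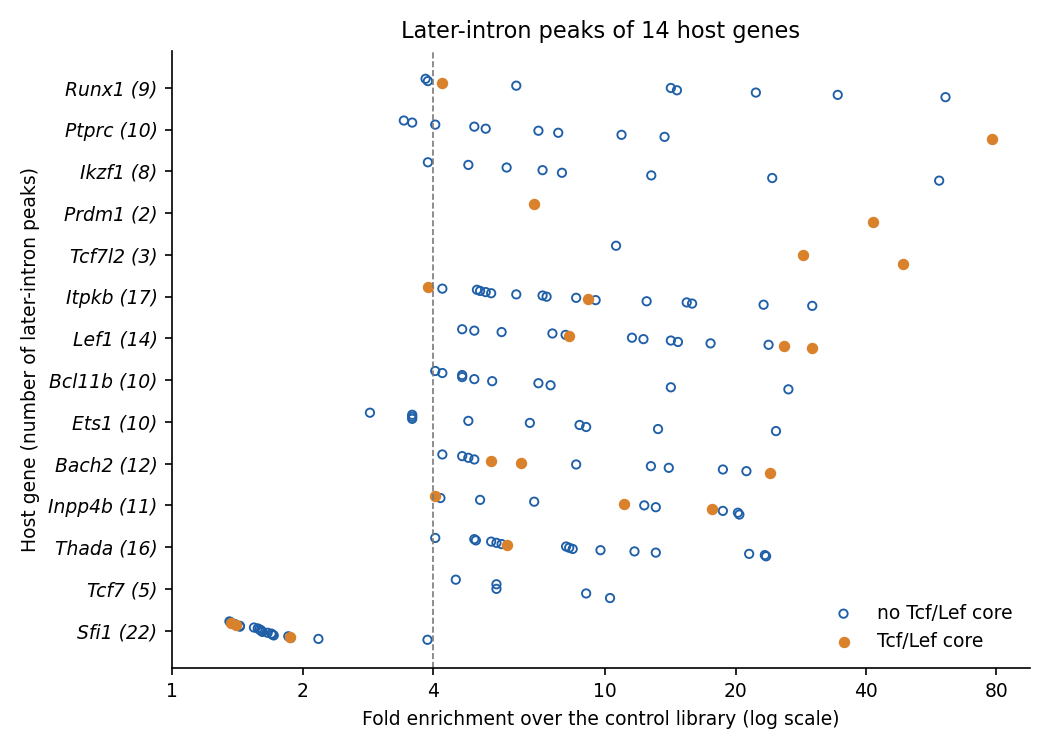
Fold enrichment over the control library (log scale) of every later-intron peak in 14 host genes, 1 point per peak, filled where the Tcf/Lef core lay within 100 bp of the summit; the dashed line marks a fold enrichment of 4 and the number after each gene is its count of peaks. All 22 Sfi1 peaks lie under the line, while all 14 Lef1 and all 12 Bach2 peaks lie above it. Of all later-intron peaks, 87.3% had a fold enrichment of at least 4.

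Peaks were sparser in later introns than in first introns and denser than between genes. Later introns held 6.29 summits per Mb over 594 Mb (95% interval 6.09 to 6.49), first introns 11.6 and intergenic sequence 4.44. The ratio was 0.542 to first introns (95% interval 0.515 to 0.570; exact conditional binomial test, two-sided, adjusted p = 6.61e-116) and 1.42 to intergenic sequence (1.36 to 1.48, adjusted p = 2.66e-60). Later introns made up 24.8% of the sequence and held 17.2% of summits, 0.692 times the genome-wide density. A one-sided exact binomial test for enrichment, the form of test used in the study, gave p = 1, and the two-sided one gave p = 1.17e-162. Both tests set later introns against all sequence, promoters included, and promoters held 39.3% of summits in 4.17% of the sequence. The density of the genome without promoters was not computed.

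Densities were also compared by distance from a start site. The median later-intron summit lay 13.6 kb from the nearest start site and the median first-intron summit 7.22 kb. At 1 to 5 kb from a start site, later introns held 8.95 peaks per Mb and first introns 17.7, a ratio of 0.505 (exact conditional binomial test, adjusted over the 10 distance comparisons, p = 7.50e-46). The ratio was 0.650 at 5 to 10 kb, 0.616 at 10 to 20 kb and 0.720 at 20 to 50 kb, each past the threshold (largest adjusted exact p = 3.23e-07). Beyond 50 kb the densities were 3.05 and 3.42, with a ratio of 0.890 that was not past it (adjusted exact p = 0.266). Against intergenic sequence the ratio was 0.949 at 1 to 5 kb (adjusted exact p = 0.266), 1.09 at 5 to 10 kb (adjusted exact p = 0.121), 1.07 at 10 to 20 kb (adjusted exact p = 0.164), 1.12 at 20 to 50 kb (adjusted exact p = 0.0104) and 1.55 beyond 50 kb (adjusted exact p = 2.05e-15).

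**Figure D2:**
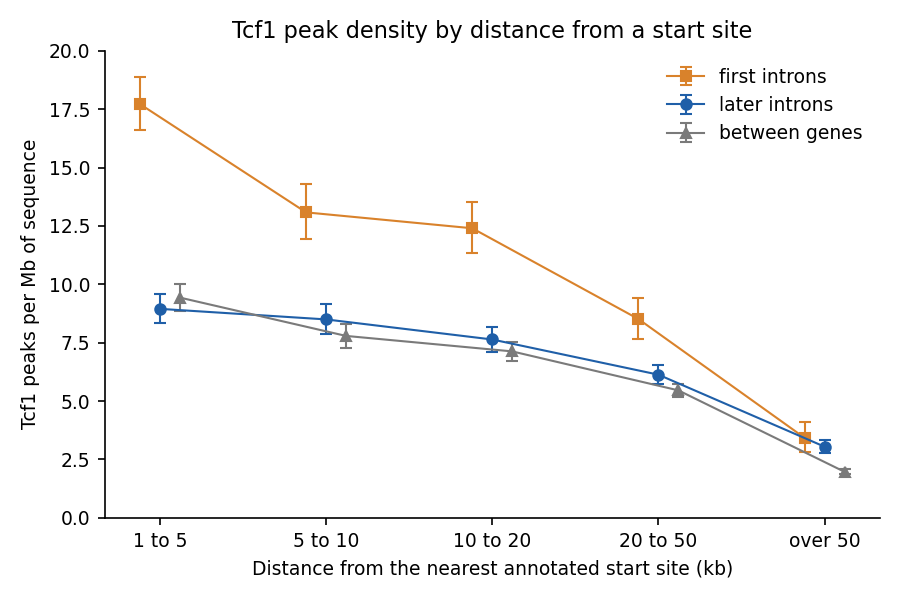
Tcf1 peaks per Mb of sequence (y axis) in first introns, later introns and between genes, by distance of the summit from the nearest annotated start site in kb (x axis); bars are 95% Poisson intervals. Later introns (circles) run from 8.95 peaks per Mb at 1 to 5 kb down to 3.05 beyond 50 kb and lie under first introns in every range.

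Among later introns, the second held 1029 peaks at 8.03 per Mb, the third 596 at 6.78 and the fourth 422 at 7.12. Introns 11 to 20 held 4.65 per Mb and those after intron 20 held 5.20. Median fold enrichment ranged from 6.23 to 7.32 over the 8 ranges of intron number and the share with the Tcf/Lef core from 12.1% to 15.8%, with no steady order. By intron length, density was 5.997 per Mb in introns of up to 2 kb, 8.01 in those of 10 to 20 kb and 4.14 in those over 50 kb. These densities are a description and were not tested.

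Within the intron, summits were near exon edges about as often as the sequence itself was. Of later-intron summits, 999 (26.8%) lay within 1 kb of an exon edge, and 26.8% of later-intron sequence did (ratio 0.998, 95% interval 0.946 to 1.05; exact binomial test, two-sided, adjusted p = 0.971). This depended on the setting: the ratio was 1.25 with 1 peak per intron (adjusted exact p = 9.67e-15) and 1.09 for summits within 2.5 kb of an edge (adjusted exact p = 2.82e-06). The side nearer the 5′ end of the intron held 49.1% of summits and 49.8% of sequence (adjusted exact p = 0.459). Another summit lay within 10 kb of 2030 later-intron summits (54.4%), against 71.4% for first-intron summits (odds ratio 0.478, 95% interval 0.429 to 0.533; Fisher's exact test, adjusted p = 3.38e-41) and 55.2% for intergenic summits (odds ratio 0.966, 0.890 to 1.05, adjusted p = 0.459). Later-intron peaks were less often close to another peak of any class, promoter peaks included, than first-intron peaks were. Their median summit lay 13.6 kb from a start site, against 7.22 kb for first-intron peaks.

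The Tcf/Lef core was found within 100 bp of the summit in 523 later-intron peaks (14.0%, Wilson 95% interval 12.9% to 15.2%) and in 3.03% of windows of the same size 2 kb to each side (odds ratio 5.22, 95% interval 4.44 to 6.13; Fisher's exact test, two-sided, adjusted p = 2.68e-98). Regular windows through later-intron sequence held it in 3.76%, and the core read backwards (GAAACTA) was in 2.38% of summits and 2.28% of flanks. First-intron summits held the core in 12.7% (odds ratio 1.12, 0.961 to 1.30, adjusted exact p = 0.217), intergenic summits in 12.1% (odds ratio 1.18, 1.05 to 1.33, adjusted exact p = 0.0134) and promoter summits in 4.74% (odds ratio 3.27, 2.86 to 3.75, adjusted exact p = 1.25e-64). The excess over promoters was large, while that over intergenic peaks was small and was lost under 4 of the alternatives tried. Where the core was present, the median distance of its nearest copy was 20 bp (quartiles 8 and 43 bp), with 296 of 523 peaks within 25 bp, and 35 peaks held at least 2 copies.

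Runx cores were more common still. TGTGGTT was found in 824 later-intron summits (22.1%) and in 5.10% of flanks (odds ratio 5.27, 95% interval 4.63 to 5.99; Fisher's exact test, adjusted p = 4.36e-152). It was in 20.2% of first-intron summits (odds ratio 1.12, adjusted exact p = 0.140), 19.9% of intergenic summits (odds ratio 1.14, adjusted exact p = 0.0201) and 5.90% of promoter summits (odds ratio 4.52, adjusted exact p = 1.33e-140), and the excess over intergenic summits was lost at fold minimums of 4 and 8. ETS proteins bind a GGAA core, and its form without a CpG (AGGAAGT) stood at 21.4% of later-intron summits and 4.97% of flanks (odds ratio 5.22, adjusted exact p = 4.37e-147). The form with a CpG (CGGAAGT) was rare here, at 2.28% of later-intron summits against 12.6% of promoter summits (odds ratio 0.162, 95% interval 0.129 to 0.202, adjusted exact p = 6.17e-89), although it too exceeded its flanks (0.562%, odds ratio 4.12, adjusted exact p = 3.13e-14). Later-intron windows had a median GC content of 48.3%, against 62.2% at promoters.

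Other cores rose less above their flanks. The AP-1 core (TGANTCA) was in 8.60% of later-intron summits and 5.73% of flanks (odds ratio 1.55, adjusted p = 5.03e-08 by Fisher's exact test). The core of CTCF, the factor that anchors chromatin loops, was in 6.40% and 3.51% (odds ratio 1.88, adjusted exact p = 2.98e-11). It was in 4.25% of first-intron, 7.42% of intergenic and 11.4% of promoter summits and in 8.50% of all peaks, differences that were not tested. The E-box of E proteins and Zeb1 (CAGGTG) was in 17.2% and 14.4% (odds ratio 1.23, adjusted exact p = 0.000234). The Gata core (AGATAA) was in 9.83% and 10.3% (odds ratio 0.945, 95% interval 0.829 to 1.08, adjusted exact p = 0.459), so an excess of it was not detected.

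**Figure D3:**
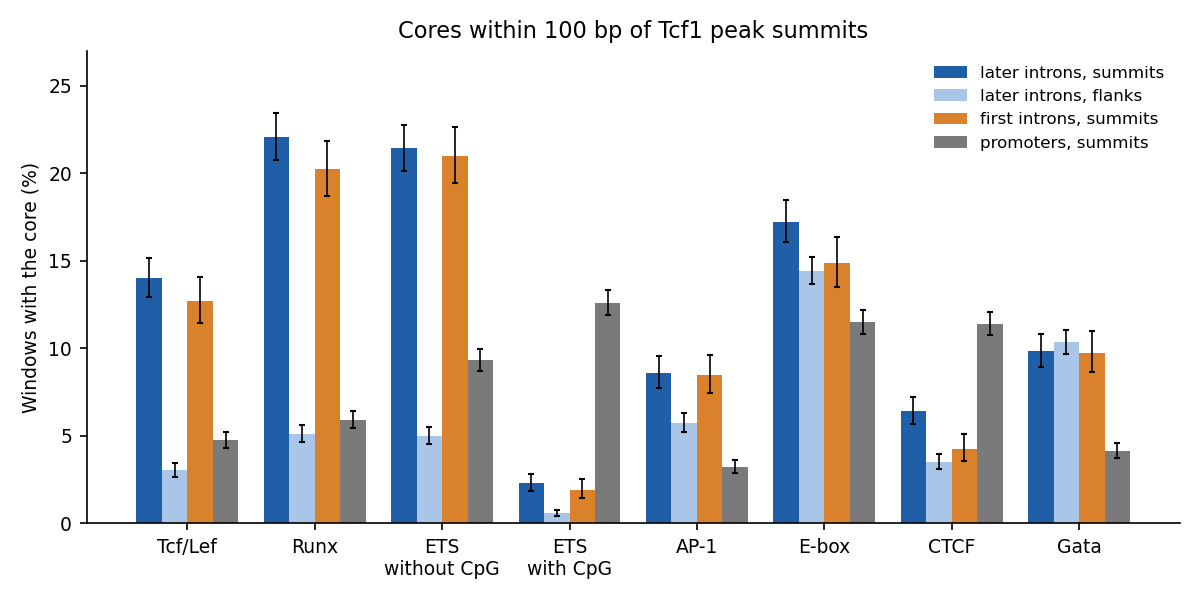
Share of windows of 100 bp to each side with each core (y axis, percent; bars start at 0, error bars are Wilson 95% intervals) at later-intron summits, in the flanks 2 kb to each side of them, at first-intron summits and at promoter summits. The Runx core is at 22.1% of later-intron and 20.2% of first-intron summits, while promoter summits hold the ETS core with a CpG in 12.6%.

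The bases around the Tcf/Lef core differed between summits and flanks. The base just 5′ of ATCAAAG was C in 43.2% of 523 summit copies against 27.9% of 226 flank copies (Fisher's exact test, adjusted over 24 comparisons, p = 0.000495) and G in 36.5% against 26.5% (adjusted p = 0.0426). It was A in 11.7% against 25.7% (adjusted exact p = 8.85e-05) and T in 8.60% against 19.9% (adjusted exact p = 0.000313). The base just 3′ was T in 14.1% against 26.5% (adjusted exact p = 0.000495). Copies under later-intron peaks thus stood most often as CATCAAAG or GATCAAAG.

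Of the 21 sequences that differ from ATCAAAG by 1 base, 12 were more common at later-intron summits than in flanks and 3 less common after adjustment (positions counted from 1 at the 5′ end of ATCAAAG, the core's base given first). The most common, and the one of highest odds ratio, was A1T (TTCAAAG), in 13.3% of summits and 4.47% of flanks (odds ratio 3.27, 95% interval 2.83 to 3.78; Fisher's exact test, adjusted p = 1.14e-57), close to the share of the core itself. By odds ratio it was followed by C3G (8.57% and 4.03%, odds ratio 2.23) and G7C (4.34% and 2.32%, odds ratio 1.91). The 3 that were less common were C3T (3.29% and 5.66%), A4C (1.26% and 2.28%) and G7T (2.04% and 2.89%). Windows with the unchanged core were not left out of these counts.

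Ranked by excess over the flanks, the leading 7-base sequence within 50 bp of later-intron summits was AACCACA, the Runx core, in 15.5% of summits and 2.53% of flanks. CAGGAAG (15.96% and 3.99%) and ACAGGAA (13.7% and 3.12%), which hold the GGAA of ETS sites, came next. The Tcf/Lef core ranked at 7, with 11.1% and 1.35%. Of the 20 leading sequences 17 were also among the 20 leading ones at first-intron summits and 17 at intergenic summits, whereas 0 were at promoter summits. These ranks describe the windows and carry no test.

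The sequence at rank 4, CCACATC (11.7% of summits and 1.70% of flanks), shares its CCACA with the Runx core AACCACA, and its extensions were counted after it was seen, so they too carry no test. Within 100 bp of the summit, CCACATCCT, the extension by 2 bases with the most percentage points over its flanks, was in 181 later-intron summits (4.85%, Wilson 95% interval 4.20% to 5.58%) and 0.522% of flanks. CCACATCAAAG, in which CCACA runs into the whole Tcf/Lef core, was in 26 later-intron summits (0.696%, 0.476% to 1.02%) and in 0 of 7468 flank windows, which allows a share of up to 0.0402%. Regular windows of later-intron sequence held the latter in 0.0165%. Its share was 0.486% at first-intron, 0.577% at intergenic and 0.0819% at promoter summits. The median fold enrichment was 9.34 in the 26 peaks with CCACATCAAAG and 6.39 in the 181 with CCACATCCT. The strongest examples of each follow on the plus strand (mm9) with that sequence in capitals, first Tet3 and Pdzrn3 with CCACATCAAAG or its reverse complement, then Clip2 and Klhdc1 with AGGATGTGG, the reverse complement of CCACATCCT.
Tet3 intron 2, chr6:83366284-83366434: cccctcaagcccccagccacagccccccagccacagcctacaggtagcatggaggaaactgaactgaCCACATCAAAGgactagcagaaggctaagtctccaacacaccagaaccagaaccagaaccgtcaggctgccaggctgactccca
Pdzrn3 intron 2, chr6:101309763-101309913: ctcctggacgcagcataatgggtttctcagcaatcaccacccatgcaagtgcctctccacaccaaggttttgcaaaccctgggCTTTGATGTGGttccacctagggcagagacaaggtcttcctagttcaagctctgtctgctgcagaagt
Clip2 intron 12, chr5:134970309-134970459: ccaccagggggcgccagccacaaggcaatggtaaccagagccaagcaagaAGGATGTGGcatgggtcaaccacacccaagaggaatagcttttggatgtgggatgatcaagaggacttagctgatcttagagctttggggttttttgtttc
Klhdc1 intron 6, chr12:70358928-70359078: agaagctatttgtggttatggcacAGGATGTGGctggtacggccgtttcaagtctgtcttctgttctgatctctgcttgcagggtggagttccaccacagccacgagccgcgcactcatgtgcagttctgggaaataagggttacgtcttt

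The Tet3 peak, in intron 2 of a gene for an enzyme that oxidises methylated cytosine, had a fold enrichment of 29.5 from 189 fragments against 5.44 in the control, and lay 25.3 kb from the nearest start site. The Pdzrn3 peak, at a fold enrichment of 24.5, was 4.83 kb from one. With AGGATGTGG, the Clip2 peak reached 330 fragments and a fold enrichment of 51.6 and the Klhdc1 peak 268 fragments and 41.9.

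The Tcf/Lef core was more common in stronger later-intron peaks. It was in 19.2% of those with a fold enrichment of at least 10 and in 11.9% of the others (odds ratio 1.75, 95% interval 1.45 to 2.13; Fisher's exact test, two-sided, adjusted p = 5.00e-08). Over 6 ranges of fold enrichment the share was 11.1% under 4, 11.5% at 4 to 6, 12.8% at 6 to 10, 17.3% at 10 to 20, 20.6% at 20 to 40 and 33.3% of 66 peaks at 40 and over. The Runx core followed the same order, from 14.9% to 39.4%. The ETS core without a CpG did not: it was at 18.7% under 4, 23.9% at 6 to 10 and 16.7% at 40 and over. Stronger peaks were also wider, with a median of 238.5 bp under 4 and 826.5 bp at 40 and over, but the search window was the same for all.

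**Figure D4:**
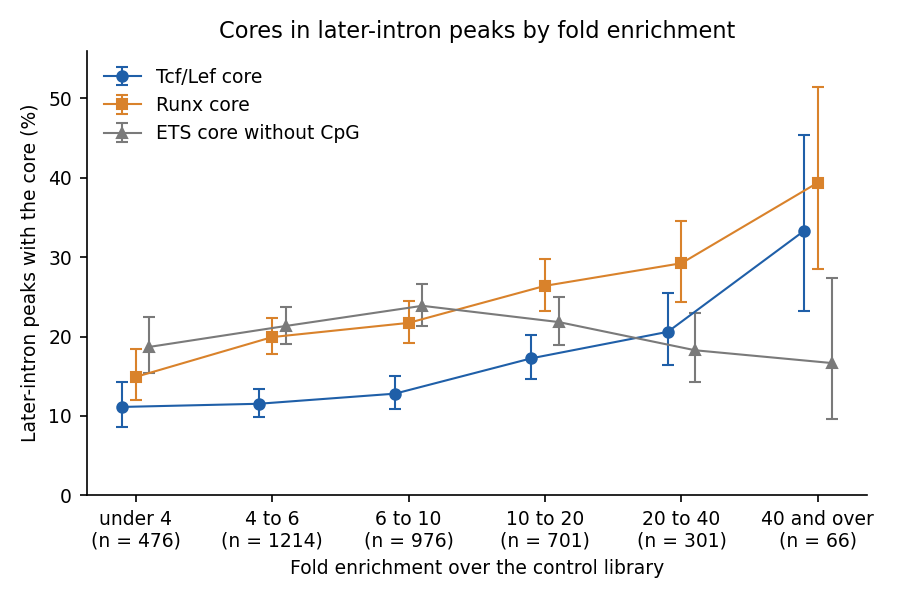
Share of later-intron peaks with each core within 100 bp of the summit (y axis, percent) by range of fold enrichment (x axis, with the number of peaks); bars are Wilson 95% intervals. The Tcf/Lef core goes from 11.1% to 33.3% and the Runx core from 14.9% to 39.4%, while the ETS core without a CpG stays between 16.7% and 23.9%.

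Few later-intron peaks held several of the 3 cores. The Runx core was in 16.3% of peaks with the Tcf/Lef core and 23.0% of those without (odds ratio 0.649, 95% interval 0.507 to 0.831; Fisher's exact test, adjusted over 3 pairs, p = 0.000627). The ETS core without a CpG was in 15.1% of peaks with the Tcf/Lef core and 22.5% of those without (odds ratio 0.614, adjusted exact p = 0.000339), and in 18.0% of peaks with the Runx core and 22.4% of those without (odds ratio 0.758, adjusted exact p = 0.00609). With the ETS core counted in either form, with or without a CpG, 1839 later-intron peaks (49.3%) held no Tcf/Lef, Runx or ETS core, with a median fold enrichment of 6.08. The 364 with the Tcf/Lef core alone had a median of 7.32, the 592 with the Runx core alone 7.17, the 633 with either ETS core alone 6.21, and the 72 with the Tcf/Lef and Runx cores together 10.1. Absence here means only that these letters were not in the window, since variants such as TTCAAAG were not counted.

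The nearest copy of the Tcf/Lef core lay on the strand of the host gene in 207 of 522 later-intron peaks (39.7%, Wilson 95% interval 35.5% to 43.9%), fewer than an equal share (exact binomial test, two-sided, adjusted p = 5.57e-06). Later-intron sequence has this skew on its own: regular windows of it had the core on the host strand in 42.7% of 11116 cases, flanks in the same intron in 43.8% of 160, and first-intron summits in 41.9% of 308. Against the regular windows the odds ratio was 0.880 (95% interval 0.736 to 1.05; Fisher's exact test, adjusted over 5 comparisons, p = 0.290), so a preference of the peaks beyond that of the introns was not shown. The Runx core was on the host strand in 62.6% of 820 peaks and 58.4% of regular windows (odds ratio 1.19, 95% interval 1.03 to 1.38, adjusted exact p = 0.0894), which also missed the threshold.

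Host genes with a Tcf1 peak at a start site were more often found among hosts of later-intron peaks, a comparison added after the data were seen. A promoter peak was present in 1173 of 1990 host genes (58.9%) and in 5871 of the other 14181 coding genes with later-intron sequence (41.4%; odds ratio 2.03, 95% interval 1.85 to 2.24; Fisher's exact test, two-sided, p = 5.73e-49). Within the shortest, middle and longest genes by later-intron sequence the odds ratios were 2.08, 1.65 and 2.14. Later introns of genes with a promoter peak held 10.9 peaks per Mb (95% interval 10.5 to 11.4) and those of genes without held 3.47 (3.29 to 3.66).

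Later introns of T cell genes were dense in peaks. Densities by gene list, given as a description with no test since the lists were chosen with results known, stood beside 6.24 peaks per Mb over all coding genes (here a base in 2 genes counts for each). Among 47 transcription factor genes of the T lineage, 29 held 130 later-intron peaks at 35.9 per Mb, with a median fold enrichment of 7.52 against 6.46 over all later-intron peaks, and the Tcf/Lef core was in 21 of them (16.2%, against 14.0% of all later-intron peaks). T cell receptor signalling genes held 122 peaks in 32 of 53 genes at 27.9 per Mb, with a median fold enrichment of 6.86. Cytokine receptor and STAT genes held 36 in 15 of 35 genes at 40.8 per Mb, with a median of 8.96 and 13 peaks (36.1%) at a fold enrichment of at least 10, against 28.6% of all later-intron peaks. Migration and adhesion genes held 42 at 16.9 per Mb and chromatin and genome architecture genes 49 at 16.8 per Mb. Wnt pathway genes, the signalling route that Tcf/Lef proteins serve in many tissues, held 24 in 13 of 38 genes at 12.5 per Mb, and all 24 had a fold enrichment of at least 4, as did 87.3% of all later-intron peaks.

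B and myeloid lineage genes held 9 later-intron peaks, in 5 of 29 genes, at 4.93 per Mb (95% interval 2.26 to 9.36, which holds the value over all coding genes). Tcf4 and Zeb2 were on both this list and that of T lineage factors, so the 2 peaks of Tcf4 count in each. Long neuronal genes held 13 later-intron peaks at 0.439 per Mb over 29.6 Mb, with a median fold enrichment of 3.895. Of the 13, 6 had a fold enrichment of at least 4, against 87.3% of all later-intron peaks. A promoter peak was present in 7044 of all 16171 coding genes with later-intron sequence. The count was 38 of 47 among T lineage factor genes, 49 of 53 among T cell receptor signalling genes, 31 of 35 among cytokine receptor genes, 25 of 32 among migration genes, 36 of 43 among chromatin genes, 23 of 38 among Wnt pathway genes, 2 of 29 among B and myeloid genes and 3 of 37 among long neuronal genes.

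**Figure D5:**
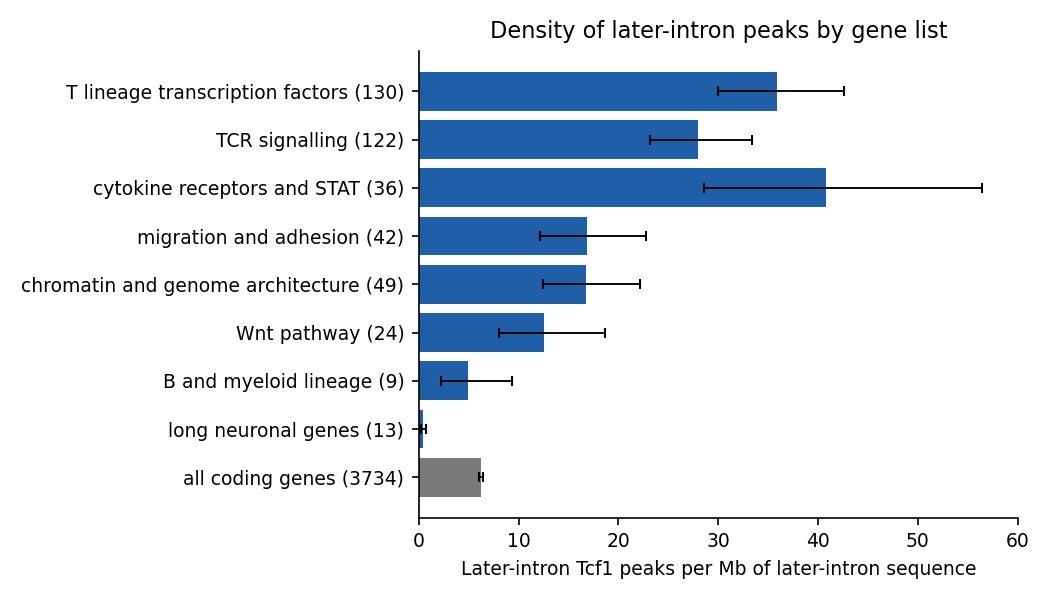
Later-intron Tcf1 peaks per Mb of later-intron sequence (x axis, from 0) for 8 gene lists and for all coding genes (grey), with the number of peaks after each name; bars are 95% Poisson intervals. Cytokine receptor and T lineage factor genes stand at 40.8 and 35.9 per Mb, all coding genes at 6.24 and long neuronal genes at 0.439.

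Among the transcription factors, Lef1, the relative of Tcf1, held 14 later-intron peaks from its second to its eleventh intron, with a median fold enrichment of 11.9. All 14 had a fold enrichment of at least 4, as did 87.3% of all later-intron peaks, whose median was 6.46. The strongest in Lef1, in intron 8 and with the Tcf/Lef core, had a fold enrichment of 30.1, from 192 fragments against 5.42 in the control. Another with the core, in intron 5, had 165 fragments and 25.9, and one in intron 3 had 52 and 8.26. Tcf7, the gene targeted in the control cells, held 5 later-intron peaks, all in intron 3 and with fold enrichments of 4.52 to 10.3, of which 0 carried the core. Their control levels were 5.42 to 6.02. The core was in 14.0% of all later-intron peaks, so 5 peaks are too few to show a lack of it.

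Prdm1, which encodes the repressor Blimp-1 of effector differentiation, held 2 later-intron peaks with the Tcf/Lef core, at chr10:44167821-44168573 in intron 4 with 401 fragments over a control level of 8.69 (fold enrichment 41.5), and in intron 5 with 43 fragments (6.86). Intron numbers follow the longest transcript. Bach2, a repressor that keeps T cells quiescent, held 12 peaks at fold enrichments of 4.21 to 24.0, 3 with the core. Bcl11b, required for T lineage commitment, held 10 in its last intron at 4.05 to 26.5. Ets1 held 10 in its last intron at 2.86 to 24.8, of which 6 reached 4, against 87.3% of all later-intron peaks. None of the 20 peaks in these 2 genes carried the core, which 14.0% of all later-intron peaks held. Ikzf1, encoding Ikaros, held 8, the strongest with 378 fragments and a fold enrichment of 59.1, and none with the core.

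Runx1 held 9 later-intron peaks at fold enrichments of 3.85 to 61.1. The strongest was in intron 2 with 391 fragments and lacked both the Tcf/Lef and the Runx core, whereas the next, at 34.4, carried the Runx core. Runx3, the Runx factor of CD8+ T cells, held 1 at a fold enrichment of 7.32. Satb1, a chromatin organiser of T cells, held 5 at 3.43 to 19.2. Cd4, Myb, Axin2, Tox, Foxo1 and Il7r held no later-intron peak, with 9054 bp of later-intron sequence in Cd4, 147125 bp in Tox and only 605 bp in Foxo1.

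In T cell receptor signalling, Ptprc held 10 later-intron peaks in introns 2 and 3, of which the one at 78.1 carried the Tcf/Lef core and the other 9 did not and reached at most 13.7. Inpp5d held only the 1 described above, and Inpp4b, a lipid phosphatase gene of the same pathway, held 11 at fold enrichments of 4.05 to 20.4, 3 with the core. Itpr1, an inositol trisphosphate receptor gene, held 11, the strongest with 281 fragments and a fold enrichment of 43.9 in intron 60. Cblb, a ubiquitin ligase gene that restrains T cell activation, held 13 at 3.74 to 40.04.

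Cytokine receptor genes held Il18r1 (5 peaks, 7.32 to 62.9), Il12rb2 (2 peaks, up to 45.8) and Jak1, the kinase of many such receptors (4 peaks, 3.74 to 45.5, the strongest with the Tcf/Lef core). Among migration genes, Ccr7, the chemokine receptor gene of naïve cells, held 1 at a fold enrichment of 12.5. Arhgef3 held 10 up to 24.1, and Dock8 had one at 23.2.

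In the Wnt pathway, Tcf7l2, another Tcf/Lef family gene, held 3 later-intron peaks. That of intron 7 had 312 fragments and a fold enrichment of 48.8, and one of intron 3 had a fold enrichment of 28.6 from 334 fragments against 10.7 in the control, and both carried the Tcf/Lef core. Rnf43, a ubiquitin ligase gene that limits Wnt receptors, held 4 up to 30.5, 2 with the core, and its relative Znrf3 held 1 at 4.04 in later introns. Chromatin genes were led by Chd2 (255 fragments, fold enrichment 39.9), Tet3 (247 fragments, 38.6, with the core) and Chd7 (223 fragments, 34.9). In the B and myeloid list, Tcf4, which is also on the T lineage list, reached 21.8 with the core, Pax5, the B lineage factor, 13.4 without it, and Mef2c 8.26 with it.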

How the data were processed

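Tcf1 ChIP-seq was analysed from 1 deposited peak list. The authors aligned reads to mm9 with Bowtie2 2.2.5 and called peaks with MACS2 2.1.1.20160309 on paired-end fragments at a p limit of 1e-05, testing WT against Tcf1-deficient cells. In the deposited file, pileup is a coverage signal counting WT fragments at the summit. Fold enrichment is a ratio that the authors' caller forms after adding 1 to pileup and to the local control level. The control level was computed back from pileup and fold enrichment. The deposited −log10 p comes from a Poisson model. A p recomputed from pileup and control level matched it within 0.05 for 3656 of the 3656 later-intron peaks where it could be computed. The header names scaling to the smaller library. This match cannot tell whether that was done, since all the values in it come from the same caller. The deposited q column (1 column) was not used, and the 522 peaks on other chromosomes were left out.

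Start sites, exons and introns came from GENCODE vM1, and sequence from the matching mm9 genome (NCBIM37). Sequence without a base call was left out of the lengths behind densities. Windows reached 100 bp to each side of the summit, and flanks were windows of the same size centred 2000 bp away. Cores were searched on both strands, and cores may overlap. Shares have Wilson 95% intervals and densities exact Poisson 95% intervals. Classes were compared with Fisher's exact test and densities with exact binomial tests (Python 3.11.15, SciPy 1.17.1), all two-sided unless stated, with Benjamini-Hochberg adjustment over 32 tests at 0.05 unless another family is named. Intron number, intron length, gene lists, 7-base sequences and their extensions were described without a test. The core search and the position classes were tested on simulated data.

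Named peaks were the 12 strongest, the 3 of largest pileup, the 3 strongest of each gene list, those of the 8 genes with most, and those of 18 chosen T cell genes. Sequences were printed for the strongest with and without each core and for chosen T cell genes, leaving out those on chromosome 18. 1 gene that this rule names is not reported here. Other hosts were named after their values were seen. The members and lists were chosen with earlier results of these data known. Alternatives covered the fold minimum, the start-site limit, the transcript model, 1 peak per intron, control level, window size and distance from start sites.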

Additional observations from a re-analysis of the deposited data

How the results depend on the processing

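Over 34 results, 213 alternative settings were tried, and 184 kept direction and side of the threshold (counts within 1.5 times). Odds ratios here are of later-intron peaks against the class named. A fold minimum of 8 left 1424 later-intron peaks by construction. For the share at a fold enrichment of 4, against first introns the odds ratio was 0.996 with 5 in place of 4, 0.983 with start sites excluded to 2.5 kb and 0.867 with 1 peak per intron, and against promoters 1.12 with 5 in place of 4 and 1.36 with 1 peak per intron, both now past the threshold. Against intergenic peaks it was 1.204 at 10 to 50 kb from a start site, no longer past it. For the share at 10, against first introns it was 0.983 with 8 in place of 10 and 0.856 with 1 peak per intron, and against intergenic peaks 0.863 with 1 peak per intron, so keeping only the strongest peak of each intron or gap turned these, past the threshold for the last 2 (adjusted exact p = 0.0386 and 0.0127).

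For the Tcf/Lef core against intergenic peaks, the excess was no longer past the threshold at a fold minimum of 8 (1.17), with 1 peak per intron (1.12), with windows of 250 bp (1.098) and at 10 to 50 kb (1.16), while against first introns it passed it with any protein-coding transcript (1.195) and with windows of 250 bp (1.18). For the Runx core, against first introns it passed at a fold minimum of 4 (1.16), at control floor (1.16) and with windows of 50 bp (1.21), and against intergenic peaks it was lost at minimums of 4 (1.11) and 8 (1.15). The ETS core with a CpG gave 0.775 at a minimum of 8 and 0.916 with windows of 50 bp against first introns, and 0.625 with windows of 50 bp, now past the threshold, against intergenic peaks.

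Near an exon edge the ratio to sequence was 1.01 at a fold minimum of 4, 1.25 with 1 peak per intron and 1.09 within 2.5 kb of the edge, the last 2 past the threshold, and on the 5′ side of the intron it was 1.02 with 1 peak per intron. A neighbour within 50 kb gave 1.18 against intergenic peaks, past the threshold. The cause of these changes was not tested. The promoter-peak comparison of host genes and its alternatives, and the densities and neighbours at 10 to 50 kb from a start site, were added after the data were seen. No paired analysis was possible because each group had 1 library. Depth limits the weakest peaks: at the control floor a fold enrichment of 4 takes 25 fragments.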
